A study of Drosophila melanogaster with 6 samples.

Results

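The heat shock genes described here are *Hsp22*, *Hsp23*, *Hsp26*, *Hsp27*, *Hsp67Ba*, *Hsp67Bc*, *Hsp68*, *Hsp83* and *Hsf*, which were picked by name from a table of loci by their gene symbol. They are 9 of the 17298 gene symbols in that table, and each was found in 1 locus. mRNA was sequenced from stage 5 embryos, when the blastoderm cellularizes, in 3 samples of zldZnF2 and 3 samples of w1118. zldZnF2 embryos were laid by females homozygous for a cysteine-to-serine change in the second zinc finger of Zelda (ZLD), the activator of the zygotic genome, at the endogenous *zld* gene. w1118 embryos, with wild-type maternal *zld*, were the control. The zldZnF2 embryos inherited mutated *zld* from their mothers, and the comparison does not separate the maternal product from the embryo's own inherited copy. The embryos of each genotype were sorted by hand under a microscope. All flies were raised at 25°C and the sources name no heat treatment. The comparison asks how the mRNAs of these genes differed in embryos that inherited the mutated form of ZLD.

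Heat shock proteins are molecular chaperones that hold or refold damaged proteins. In *Drosophila* the heat shock factor Hsf binds upstream of their genes and switches them on within minutes of heat stress. Several of them are also used without stress: *Hsp83* and some of the small heat shock genes are transcribed in the ovary, and their mRNAs are loaded into the egg. *Hsp83* mRNA is a classic example of a maternal mRNA that the RNA-binding protein Smaug marks for destruction in the body of the embryo, while it is protected at the posterior pole, where the germ cells form. The small heat shock genes of the 67B cluster also respond to the steroid hormone ecdysone at later stages.

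Each value is an FPKM, the number of fragments scaled to transcript length and to sequencing depth, which the authors computed for each genotype from its 3 samples together. There is 1 value per gene and genotype, so no spread between samples can be given from them, no test was made here, and the words higher and lower describe these 2 values only. Differences are given as log2 of zldZnF2 over w1118 after 1 FPKM was added to each value, which understates the difference of low genes. A locus was counted as expressed where 1 or both genotypes reached 1 FPKM, which 6265 loci did. Their median log2 difference was -0.0038. Blastoderm markers were present in both genotypes: all 8 of *eve*, *ftz*, *hb*, *Kr*, *kni*, *tll*, *sna* and *twi* were expressed, with a summed FPKM of 1236 in zldZnF2 and 1087 in w1118.

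2 of the 9 heat shock genes, *Hsp22* and *Hsp27*, were more than 3-fold lower in zldZnF2 than in w1118. *Hsp23* was lower by a smaller factor, *Hsp83* and *Hsf* were higher, and *Hsp26*, *Hsp67Ba* and *Hsp68* had closer values in the 2 genotypes. 8 of the 9 genes were expressed, and *Hsp67Bc* was under 1 FPKM in both genotypes. Of these 8, 2 were at least 2-fold lower and 0 at least 2-fold higher. Over all expressed loci, 8.16% were at least 2-fold lower and 9.82% at least 2-fold higher, 18% in either direction. The median log2 difference of the 8 genes was -0.18, with 5 below and 3 above 0, where 50.4% of all expressed loci were below 0. The group thus had no common direction. In RNA from whole embryos, a lower value can come from fewer cells that hold an mRNA or from less of it per cell, and these cannot be told apart.

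**Figure D1:**
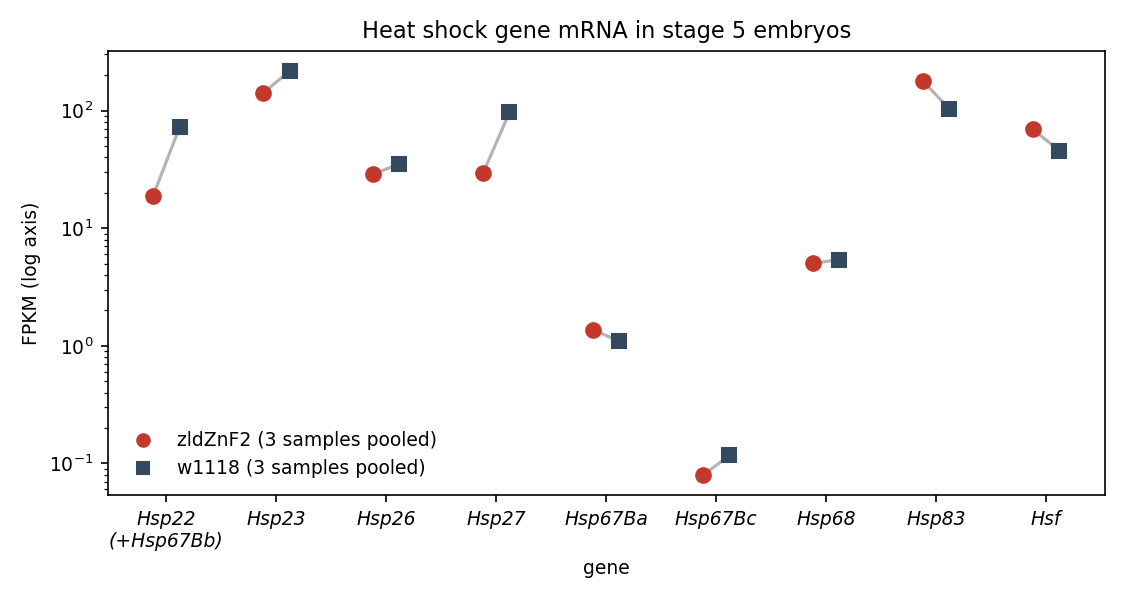
FPKM of each of the 9 heat shock genes on a log axis, with zldZnF2 as circles and w1118 as squares. Each point is the authors' single value over 3 samples, so there are no error bars. *Hsp22* is at 18.8 and 71.8 FPKM in zldZnF2 and w1118, and *Hsp83* at 177.3 and 103.3.

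The order of the genes by level differed between the genotypes. In zldZnF2 the most abundant mRNA was *Hsp83*, followed by *Hsp23*, *Hsf*, *Hsp27*, *Hsp26* and *Hsp22*. In w1118 it was *Hsp23*, followed by *Hsp83*, *Hsp27*, *Hsp22*, *Hsf* and *Hsp26*. *Hsp68*, *Hsp67Ba* and *Hsp67Bc* held the last 3 places in both. *Hsp83* mRNA was at 1.26 times the FPKM of *Hsp23* in zldZnF2 and at 0.476 times in w1118. Without a spread over samples it cannot be said which neighbours in this order differ, and *Hsp27* and *Hsp26* in zldZnF2, at 29.4 and 28.9 FPKM, were the closest.

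*Hsp22* encodes a small heat shock protein of the mitochondrial matrix. It lies on the plus strand of chromosome arm 3L, from 9372931 to 9374964 of the dm6 assembly. The locus that holds it had 18.8 FPKM in zldZnF2 and 71.8 FPKM in w1118. The level in w1118 was 3.82 times that in zldZnF2, and the log2 difference was -1.88. 87 of the 6265 expressed loci (1.39%) had a lower log2 difference. The authors' table gives this locus the symbols *Hsp22* and *Hsp67Bb* together. The annotation lists *Hsp67Bb* as *CG4456*, on the same strand from 9372722 to 9374964, a span that contains the whole of *Hsp22*. The value therefore belongs to both genes, and which of them differed cannot be told apart. Over its 2 annotated transcripts, *Hsp22* has 2 introns, both ahead of the start codon.

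*Hsp27* encodes a small heat shock protein found in the nucleus as well as the cytoplasm. It is a gene without introns, with 2 annotated transcripts, on the plus strand of 3L from 9384063 to 9385694. It had 29.4 FPKM in zldZnF2 and 96.3 FPKM in w1118. The level in w1118 was 3.27 times that in zldZnF2, a log2 difference of -1.68, and 126 expressed loci (2.01%) had a lower one. Its end overlaps *CR43483*, a pseudogene annotated on the opposite strand from 9385646 to 9386112. Reads of that overlap cannot be assigned by strand, and *CR43483* was listed at 0 in both genotypes. Among loci at 5 FPKM or more in either genotype, where ratios spread less, 6.88% of 4924 were at least 2-fold lower, 8.98% higher and 15.9% either.

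*Hsp23*, another small heat shock gene without introns (3L, plus strand, 9381882 to 9382765), was the most abundant of the cluster in both genotypes. It had 140.2 FPKM in zldZnF2 and 216.9 FPKM in w1118, a ratio of 0.646 and a log2 difference of -0.63. This was under the 2-fold limit, and 16.4% of expressed loci had a lower log2 difference. *Hsp26* (3L, minus strand, 9376418 to 9377427), whose mRNA is abundant in the nurse cells of the ovary, had 28.9 FPKM in zldZnF2 and 35.0 FPKM in w1118. Its log2 difference was -0.27, inside the middle 50% of expressed loci, which ran from -0.41 to 0.46.

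*Hsp67Ba* and *Hsp67Bc* lie in the same cluster and encode proteins with an alpha-crystallin domain. *Hsp67Ba* (3L, minus strand, 9377802 to 9379534) had 1.37 FPKM in zldZnF2 and 1.09 FPKM in w1118, a log2 difference of 0.18. An antisense RNA, *CR43481*, is annotated on the opposite strand from 9378160 to 9381119 and overlaps it. The library kit named in the labels does not mark strand, so reads of the overlap cannot be assigned to either gene with certainty. *Hsp67Bc* (3L, minus strand, 9371511 to 9372497) had 0.0795 FPKM in zldZnF2 and 0.117 FPKM in w1118. Over single-transcript genes, the smallest values above 0 gathered at a common step once multiplied by effective length (transcript length less the stretch at its end where no read can start), as 1 read would give. In those steps *Hsp67Bc* stood at about 8.82 in zldZnF2 and 13.7 in w1118, against 280 and 234 for *Hsp67Ba*. The whole reads of each sample could not be recovered from values over 3 samples, but few reads lie behind *Hsp67Bc*, and no direction was read from it.

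**Figure D2:**
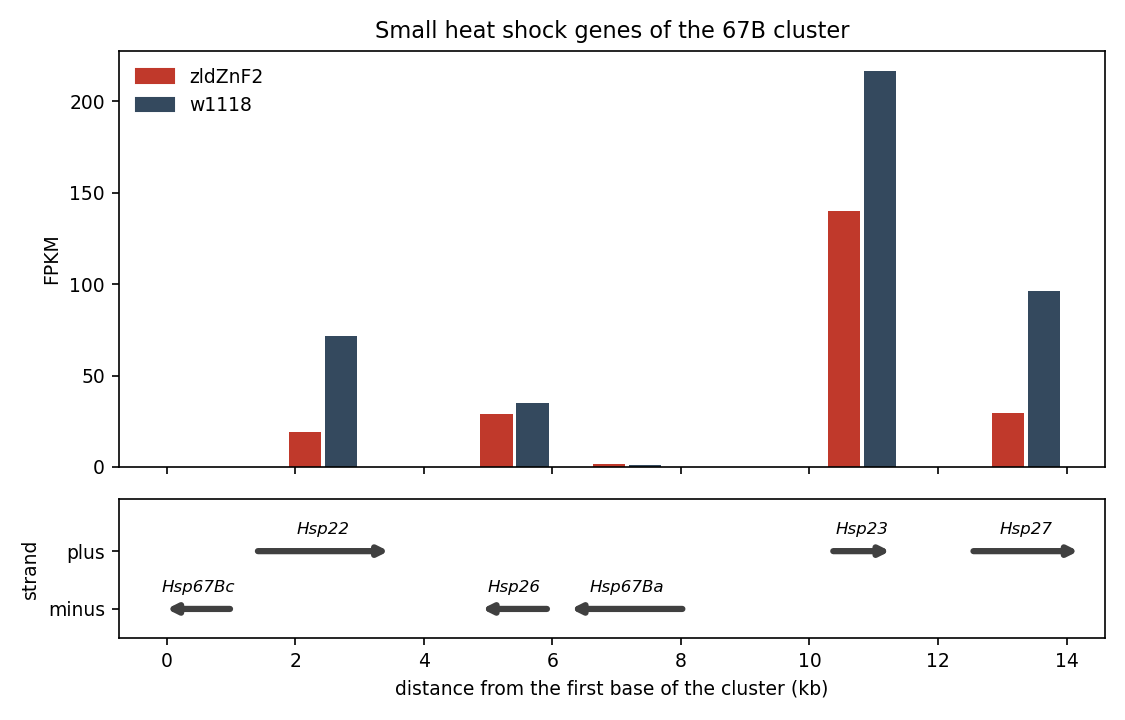
Upper panel, FPKM of the 6 small heat shock genes of the 67B cluster in zldZnF2 and w1118 (1 value per genotype over 3 samples, no error bars), placed at their position in kb from the first base of the cluster. Lower panel, each gene as an arrow on its strand. The bars of *Hsp22* and *Hsp27*, which lie near opposite ends, differ most as a ratio, at 18.8 against 71.8 and 29.4 against 96.3 FPKM, and those of *Hsp23* differ most in FPKM, at 140.2 against 216.9.

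The 6 cluster genes span 14.2 kb. Their FPKM summed to 218.7 in zldZnF2 and 421.3 in w1118, a ratio of 0.519. Without the shared *Hsp22* locus the sums were 199.9 in zldZnF2 and 349.4 in w1118. *Hsp23* made up 64.1% of the sum in zldZnF2 and 51.5% in w1118, while *Hsp27* made up 13.5% and 22.9%, and the *Hsp22* locus 8.61% and 17.1%, in the same order of genotypes. The log2 differences of the 5 expressed loci of the cluster ran from -1.88 for *Hsp22* to 0.18 for *Hsp67Ba*. 4 of the 5 were below 0, where 50.4% of all expressed loci were. 5 loci are too few to set against that share.

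Genes beside and between the heat shock genes had closer values in the 2 genotypes than *Hsp22* and *Hsp27*. 11 other loci lie between the outermost cluster genes or within 10 kb of them, and 6 of these were expressed. 0 of the 6 differed by 2-fold or more, against 18% of all expressed loci, and the 6 log2 differences ran from -0.48 to 0.20. 6 loci are too few to set against that share. *CG4452*, which lies next to the cluster, had 244.9 FPKM in zldZnF2 and 246.4 FPKM in w1118. *Klp67A*, a kinesin of the spindle, had 49.2 FPKM in zldZnF2 and 42.7 FPKM in w1118. The lowest log2 difference was that of *Fdxh*, a ferredoxin gene, with 3.16 FPKM in zldZnF2 and 4.79 FPKM in w1118. *CG4461*, a gene with an alpha-crystallin domain inside the cluster, was near 0 in both genotypes, at 0.0169 FPKM in zldZnF2 and 0.0200 in w1118.

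*Hsp83* encodes the cytoplasmic HSP90 chaperone, which completes the folding of kinases and receptors. It lies on the plus strand of 3L from 3192969 to 3197059, with an intron from 3193368 to 3194498 ahead of the start codon. It had 177.3 FPKM in zldZnF2 and 103.3 FPKM in w1118. This was a ratio of 1.72 and a log2 difference of 0.77, under the 2-fold limit, and 15.6% of expressed loci had a higher log2 difference. Of 7 listed markers of the pole cells, which keep *Hsp83* mRNA, 6 had a log2 difference below 0, from -0.94 to -0.26. These were *nos*, *osk*, *pgc*, *gcl*, *aub* and *CycB*. The other marker, *vas*, was at 0.99. Over all expressed loci, 50.4% were below 0. The summed FPKM of the 7 markers was 523.1 in zldZnF2 and 907.4 in w1118. Most of both sums came from *CycB*, with 358.3 FPKM in zldZnF2 and 687.2 FPKM in w1118. Some of the marker mRNAs are also present throughout the early embryo. The part of pole cells in the level of *Hsp83* was not tested.

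*Hsf* encodes the transcription factor of the heat shock response and is on the minus strand of 2R from 18130303 to 18134634, with 4 annotated transcripts. It had 69.0 FPKM in zldZnF2 and 45.6 FPKM in w1118, a ratio of 1.51 and a log2 difference of 0.59. 20.8% of expressed loci had a higher log2 difference. *Hsf* mRNA was thus higher in the genotype in which *Hsp22* and *Hsp27* were lower: it stood at 3.66 times the FPKM of the *Hsp22* locus in zldZnF2 and at 0.634 times in w1118. The level of an mRNA does not show whether the factor was active.

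*Hsp68*, a stress-inducible member of the HSP70 family (3R, minus strand, 24055080 to 24057310), had 5.02 FPKM in zldZnF2 and 5.41 FPKM in w1118. Its log2 difference of -0.09 was among the smallest of the 9 genes. The 6 copies of *Hsp70*, the most heat-inducible genes of the fly, were all far under 1 FPKM: they summed to 0.273 FPKM in zldZnF2 and 0.0469 FPKM in w1118. These copies are nearly identical, so the split of reads among them is uncertain, and at this level no difference was read from them. *stv*, a heat-inducible partner of HSP70, was also under 1 FPKM in both, at 0.0137 FPKM in zldZnF2 and 0.200 FPKM in w1118. *Hsromega*, a noncoding RNA that heat induces and that is also made without stress, had 54.5 FPKM in zldZnF2 and 52.2 FPKM in w1118.

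**Figure D3:**
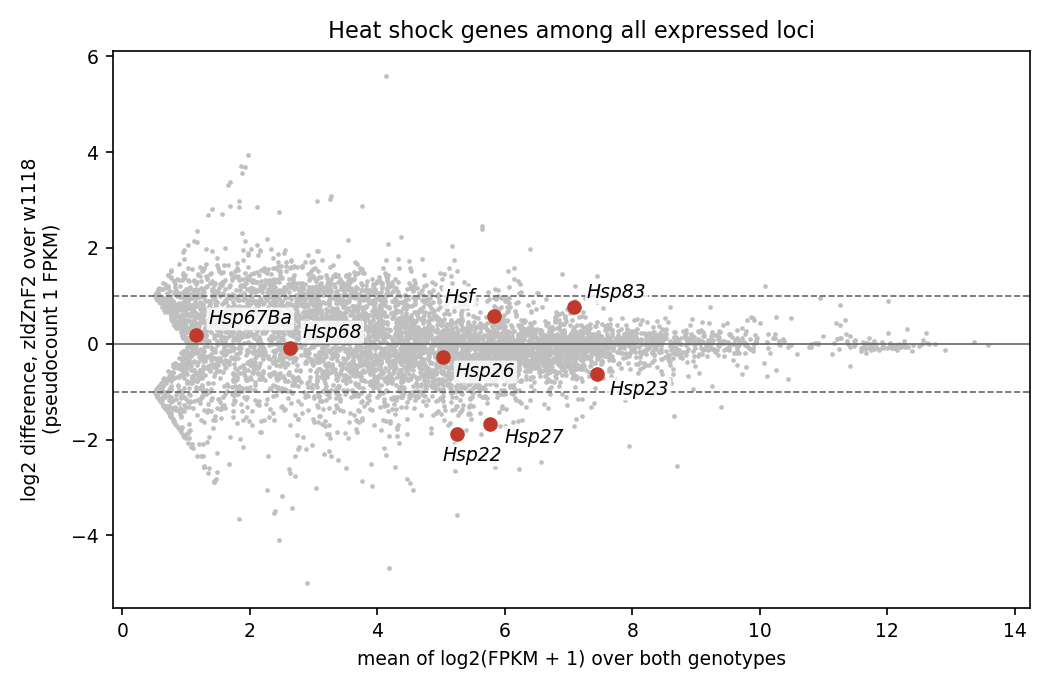
Log2 difference of zldZnF2 over w1118 against the mean of log2(FPKM + 1) over both genotypes for the 6265 expressed loci in grey, with the 8 expressed heat shock genes in red. Dashed lines mark 2-fold. *Hsp22* (-1.88) and *Hsp27* (-1.68) lie below the lower line, and *Hsp83* (0.77) and *Hsf* (0.59) lie above 0 but inside the lines.

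Other chaperone genes were examined by family. Of the 6 HSP70 cognates, which are made without stress, 1 lies on X, where all loci are listed at 0 and cannot be judged. 3 of the others were expressed and 0 were past the 2-fold limit, against 18% of all expressed loci. 3 genes are too few to set against that share. The log2 differences of these 3 cognates were -0.65, -0.08 and 0.44. *Hsc70-4*, the most abundant of them, had 3245 FPKM in zldZnF2 and 3431 FPKM in w1118, far above any of the 9 heat shock genes. *Hsc70Cb*, a nucleotide exchange factor for HSP70, had 35.6 FPKM in zldZnF2 and 56.3 FPKM in w1118. *Hsc70-5*, the mitochondrial cognate, had 12.3 FPKM in zldZnF2 and 8.80 FPKM in w1118. Among 6 expressed chaperonin subunits, which fold actin and tubulin, 0 were past the limit, against the same 18%, and the median was -0.37. 3 of the 12 listed chaperonin genes lie on X and could not be judged either. *CCT4*, the most abundant in zldZnF2, had 107.1 FPKM in zldZnF2 and 95.2 FPKM in w1118. *CCT3*, the most abundant in w1118, had 72.5 FPKM in zldZnF2 and 100.5 FPKM in w1118.

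The HSP40 co-chaperones, which deliver clients to HSP70, included 9 expressed genes, of which 2 were at least 2-fold lower and 0 higher, with a median log2 difference of -0.24. Over all expressed loci the shares were 8.16% lower and 9.82% higher. *DnaJ-H* had 8.73 FPKM in zldZnF2 and 28.5 FPKM in w1118. *Sec63*, which serves protein entry into the endoplasmic reticulum, had 20.0 FPKM in zldZnF2 and 50.7 FPKM in w1118. *Tpr2* and *Csp* were the most abundant in zldZnF2. *Tpr2* had 355.9 FPKM in zldZnF2 and 333.9 FPKM in w1118, and *Csp* had 298.1 FPKM in zldZnF2 and 352.2 FPKM in w1118. *Droj2*, the most abundant in w1118, had 282.6 FPKM in zldZnF2 and 437.0 FPKM in w1118. *DnaJ-1*, the heat-inducible member, was closer, at 34.7 FPKM in zldZnF2 and 42.3 FPKM in w1118.

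Among 10 expressed paralogs and partners of HSP90, 1 was at least 2-fold higher and 0 lower, with a median log2 difference of 0.23. This share is close to the 9.82% of all expressed loci that were 2-fold higher. The higher gene was *Hop*, which hands clients from HSP70 to HSP90, with 36.3 FPKM in zldZnF2 and 17.4 FPKM in w1118, a log2 difference of 1.02. *Trap1*, the mitochondrial HSP90, had 14.0 FPKM in zldZnF2 and 7.40 FPKM in w1118. *unc-45*, a chaperone of myosin, was low, at 1.76 FPKM in zldZnF2 and 0.404 FPKM in w1118. *Gp93*, the HSP90 of the endoplasmic reticulum, was lower in zldZnF2, with 166.8 FPKM in zldZnF2 and 249.8 FPKM in w1118. *Cdc37*, the partner for kinases, had 166.8 FPKM in zldZnF2 and 137.0 FPKM in w1118, at a locus shared with *CG12020*. HSP90 partners thus did not all lie on the side of *Hsp83*: 6 were above 0 and 4 below.

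Of the 6 other listed genes with an alpha-crystallin domain, 1 was expressed, and 1 lies on X, where all loci are listed at 0. *l(2)efl*, a small heat shock gene of muscle and other tissues, had 0.114 FPKM in zldZnF2 and 3.75 FPKM in w1118, a log2 difference of -2.09. *CG7409*, also of this family, was listed at 0 in zldZnF2 and had 0.826 FPKM in w1118.

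**Figure D4:**
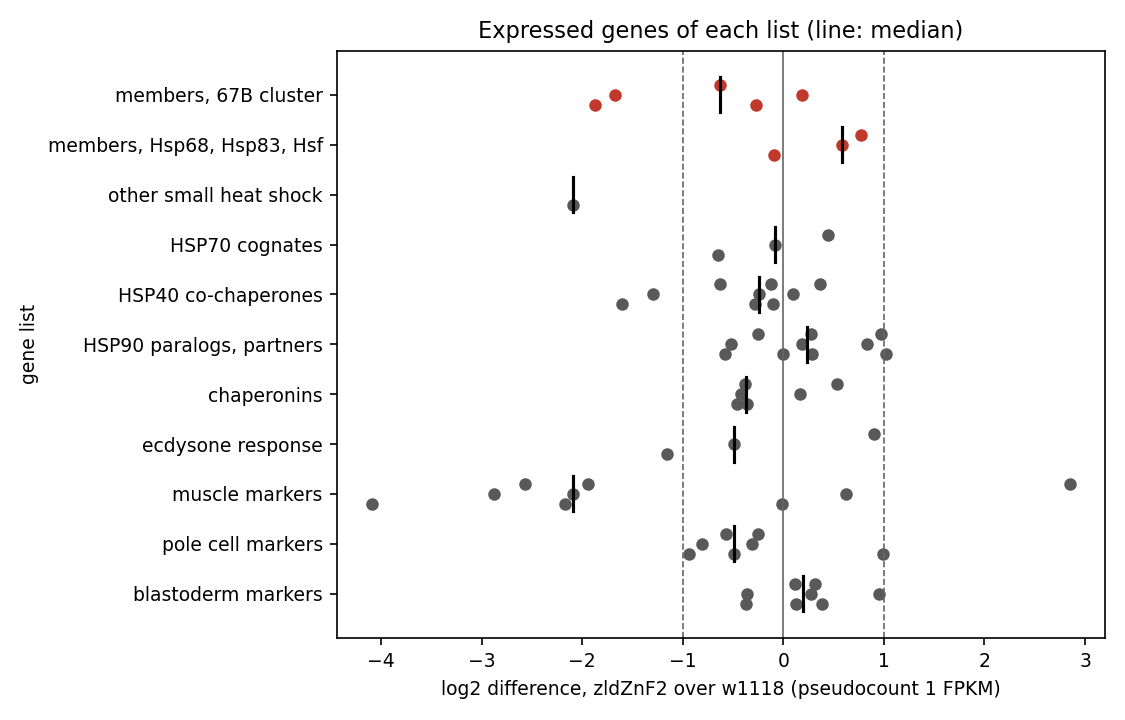
Log2 difference of zldZnF2 over w1118 for the expressed genes of each list, 1 point per gene, with the list median as a black line and 2-fold as dashed lines; the heat shock genes themselves are in red. The 67B genes run from -1.88 to 0.18, the HSP90 partners from -0.58 to 1.02 and the muscle markers from -4.09 to 2.85.

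Most expressed muscle markers were lower in zldZnF2, as were *Hsp22*, *Hsp27* and *l(2)efl*. Muscle forms only later in development. Of 12 muscle markers, 9 were expressed, 6 were at least 2-fold lower and 1 was at least 2-fold higher, where 8.16% of all expressed loci were lower and 9.82% higher. *Act57B*, a muscle actin, had 0.336 FPKM in zldZnF2 and 21.7 FPKM in w1118. *Mlc1*, *Mf* and *TpnC73F* were listed at 0 in zldZnF2, and had 6.34, 4.92 and 0.681 FPKM in w1118. The higher marker was the actin gene *Act87E*, with 10.6 FPKM in zldZnF2 and 0.614 FPKM in w1118. The list summed to 517.9 FPKM in zldZnF2 and 555.9 FPKM in w1118, most of it from *Tm1*, a tropomyosin gene that also makes non-muscle forms. Without *Tm1*, left out after its value was seen, the sums were 13.4 and 46.6 FPKM in that order. The part of muscle RNA in the levels of the heat shock genes was not tested.

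Eggshell, fat body and larval serum markers were low in both genotypes. The 10 eggshell genes summed to 1.69 FPKM in zldZnF2 and 1.30 FPKM in w1118. The sums of the 5 fat body and larval serum genes were under 2 FPKM in both. Of 9 ecdysone response genes, 2 lie on X. Of the other 7, 3 were expressed, with 1 at least 2-fold lower and 0 higher. Over all expressed loci, 8.16% were lower and 9.82% higher. *EcR*, the ecdysone receptor, had 34.6 FPKM in zldZnF2 and 49.0 FPKM in w1118. *ftz-f1*, a nuclear receptor that is also loaded into the egg, had 28.3 FPKM in zldZnF2 and 64.1 FPKM in w1118 at a locus shared with *CR45939*. *Hr39*, a nuclear receptor gene, was higher in zldZnF2, with 1.78 FPKM in zldZnF2 and 0.496 FPKM in w1118. This was a ratio of 3.60, but with 1 FPKM added its log2 difference was 0.90, so it was not counted as 2-fold higher. *Eip74EF* and *Eip75B*, direct targets of the hormone, were under 1 FPKM in both genotypes.

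For each heat shock gene at 10 FPKM or more, the single-gene locus with the nearest pair of values was sought, by distance on the log2(FPKM + 1) scale over the 2 genotypes. These were *CG42762* for *Hsp22* (distance 0.078), *CG45093* for *Hsp23* (0.070) and *CG13630* for *Hsp26* (0.014). For *Hsp27* it was *MRP* (0.24), a transporter gene, for *Hsp83* it was *asparagine-synthetase* (0.079) and for *Hsf* it was the kinase gene *Ack* (0.063). *MRP* had 32.7 FPKM in zldZnF2 and 109.6 FPKM in w1118. With 2 values per gene, such likeness is a description of level and ratio only.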

How the data were processed

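As the study's methods state, 100 bp single-end reads from 6 samples went through quality filtering and trimming on the Galaxy platform. RNA-STAR placed them on dm6, Cufflinks assembled transcripts at its default settings and Cuffdiff compared the genotypes. TopHat is also named in the submitters' processing notes, without a role. The strand and normalization options of Cuffdiff are not given in the sources used here. The authors deposited 1 FPKM per genotype for each of 16596 loci, computed from 3 samples together, so depth per sample is unknown. The authors' fold changes, test statistics, p-values and q-values were not used. All 2716 loci of chromosomes X, 4 and Y hold 0 in both genotypes, which is not read as absence. Listed genes on them were left out of the counts.

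Here, log2 differences were computed with a pseudocount of 1 FPKM, over loci with at least 1 FPKM in either genotype, and counted at a limit of 2-fold. No test was made. The genes and lists were chosen with earlier results of these data known. All 9 heat shock genes are named. Listed genes are named where past the limit, as the most abundant of their list, or, chosen after their values were seen, as examples. Older symbols were matched through RefSeq synonyms whose gene overlaps the locus, and *DnaJ-60* was not matched. Coordinates are 1-based, from Ensembl release 115 (dm6). The counting step was checked on data with known answers. No replicate could be left out, since values per sample were not used. No sequences are shown. Python 3.11.15, NumPy 2.4.6, pandas 2.3.3 and Matplotlib 3.10.9 were used.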

Additional observations from a re-analysis of the deposited data

How the results depend on the processing

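The log2 differences of the 9 heat shock genes kept their side of the 2-fold limit under all 27 values. The settings were a pseudocount of 0.1, none, or centring on the median of expressed loci. Their signs were kept too, but these settings could not have changed them. A pseudocount does not alter which value is larger, and the median of -0.0038 was nearer 0 than any of the 9 differences. With a fold limit of 1.5, chosen after seeing the data for these genes, 3 were lower (*Hsp23* was added) and 2 higher (*Hsp83* and *Hsf*), against 2 and 0. Of the 30 expressed loci of the listed chaperone and heat response genes, 3 were lower and 1 higher. The shares over all expressed loci were 8.16% lower and 9.82% higher. A minimum of 5 FPKM in either genotype, or of 1 FPKM in both, left 2 lower, since *l(2)efl* was no longer counted. A pseudocount of 0.1 or none gave 2 higher, as *unc-45* was added, a limit of 1.5 gave 5 lower and 3 higher, and a limit of 3 left 2 lower and 0 higher. Over all loci, 511 were lower and 615 higher. A minimum of 5 FPKM in either genotype left 339 lower, and 1 FPKM in both left 335, since fewer loci were counted. No pseudocount gave 926 higher. A limit of 1.5 gave 1122 lower and 1313 higher, and a limit of 3 gave 159 lower and 100 higher.

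No paired analysis was possible because the values are 1 per genotype, and for the same reason leaving out each replicate was not run. No difference reported here has a replicate check.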
